A study of Mus musculus with 3 samples.

Results

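The genes described here are 8 transcription factor genes of the midbrain GABAergic programme (*Gata2*, *Gata3*, *Tal1*, *Tal2*, *Helt*, *Sox14*, *Nkx2-2* and *Nkx6-1*), and the measurement is chromatin accessibility in dopaminergic neurons (DNs) around each of them. They were chosen by name, with earlier results of these data known, out of 21755 protein-coding genes in GENCODE M21, and the rule itself uses no measured value. Of 55326 accessible peaks in DNs (mm10), 7 overlapped one of the 8 gene bodies or lay within 50 kb of one, which is 0.0127% of the list. The peaks came from single-nucleus ATAC-seq (snATAC-seq), in which a transposase inserts adapters into open DNA of separate nuclei, on midbrain ventral tegmental area (VTA) of male wild-type C57Bl/6Nl mice. There were 2 DN samples, replicate 1 at 7 weeks of age and replicate 2 at 9 weeks, with nothing in the labels on a treatment or transgene in either. The nuclei were taken from the whole dissected region, and the authors identified the DN cluster by its gene scores for *Th* and then checked it by further markers, for example *Lmx1b*, *Foxa1*, *Foxa2* and *Slc6a3*. The other sample of the series, of mouse embryonic stem cells of the 46C line, was not analysed here.

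DNs and GABAergic neurons lie next to each other in the ventral midbrain, and each depends on its own set of transcription factors that select and then maintain the cell type. *Gata2* and *Helt* act early to set the GABAergic fate of midbrain precursors, and *Tal2* is needed alongside them. *Gata3*, *Tal1* and *Sox14* mark later or narrower GABAergic groups. *Nkx2-2* and *Nkx6-1* pattern ventral precursor domains. Peaks of accessible chromatin typically mark active or poised promoters and distal elements, and a promoter peak was taken here as a peak overlapping the 1 kb on either side of a transcription start site (TSS).

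None of the 8 genes had a promoter peak in DNs, whereas 56.9% of protein-coding genes had one. This held at each of their 13 TSSs in the basic annotation and at each of the 25 TSSs of all annotated transcripts. A peak overlapped the gene body of 1 gene, *Nkx2-2*, against 63.8% of protein-coding genes, and against 57.3% of genes within the range of lengths of the 8. A peak lay within 50 kb of 5 genes (*Gata2*, *Tal2*, *Helt*, *Nkx2-2* and *Nkx6-1*), and the list held none within 50 kb of *Gata3*, *Tal1* and *Sox14*. Across protein-coding genes 83.2% had a peak within 50 kb and 16.8% had none. Each of the 8 had at most 2 peaks, as did 33.3% of protein-coding genes. The median was 1 peak per gene, against 4 (quartiles 2 and 9) for protein-coding genes, and it was 1 against 2 when peaks at protein-coding promoters were left out. The windows together held 7.79 peaks per Mb, against 21.01 per Mb over the chromosomes of the list. Both samples are pooled in 1 list of positions without a score or a count, so these numbers have no spread between replicates, no test was possible, and a place without a peak is one where none was listed, not one shown to be closed.

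**Figure D1:**
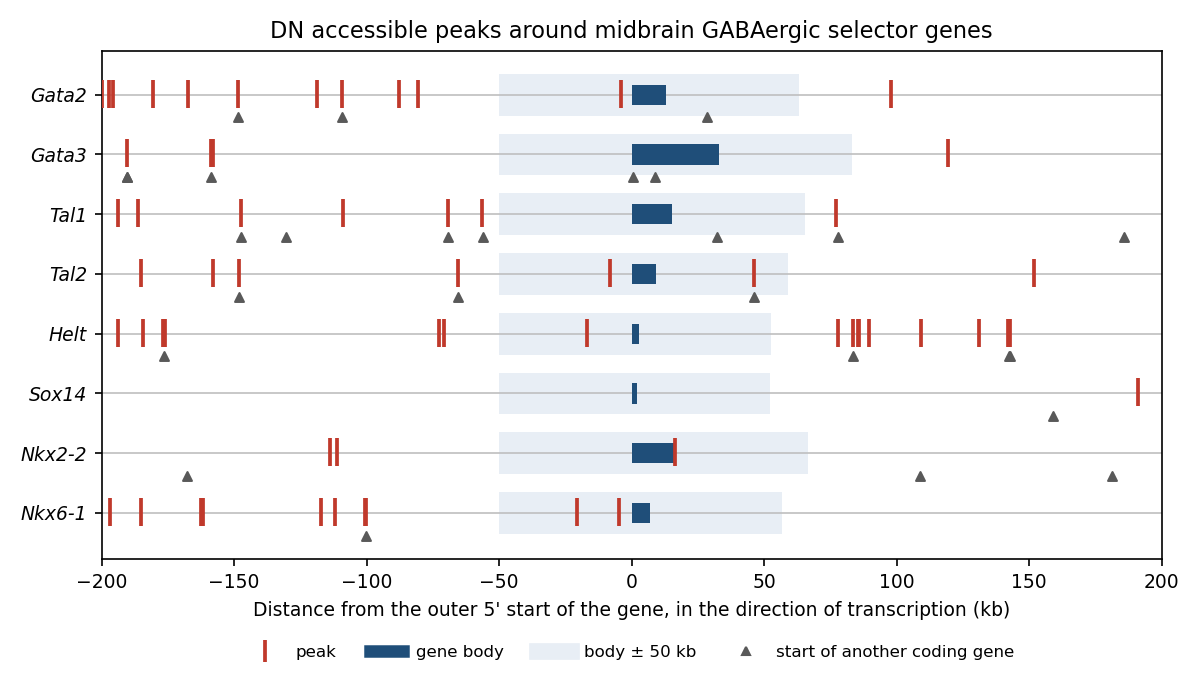
Peaks of DNs (red ticks, by peak centre) by distance in kb from the outer 5' start of each of the 8 genes, in the direction of transcription. Dark bars are gene bodies, pale bars the body and 50 kb on either side, and triangles the starts of other protein-coding genes; the pale bars of Gata3, Tal1 and Sox14 hold no tick and no tick lies at the start of any of the 8 genes.

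*Gata2* and *Gata3* encode zinc-finger factors that bind the sequence GATA. *Gata2* (chr6:88193891-88207032, plus strand) had 1 peak, at chr6:88189591-88190090, centred 4.05 kb upstream of its nearest TSS. That peak lay in an intron of the long intergenic noncoding RNA gene *Gm38708*, 0.841 kb from the TSS of that gene, and the next peak was 76.5 kb away. It was the richest in G and C of the 7, with a GC content of 68.4%, 47 CpG dinucleotides and a CpG observed to expected ratio of 0.804. Peaks at protein-coding promoters had a median GC content of 61.6% and a median CpG ratio of 0.741. Of the protein-coding genes, 24.9% had as few peaks as *Gata2* or fewer. *Gata3* (chr2:9857078-9890034, minus strand) had no peak in a stretch of 276.5 kb around it, with the nearest peaks 157.5 kb upstream and 86.0 kb downstream of the gene body. *Gata2* thus had an accessible element close to, but not at, its start, and *Gata3* had neither. The middle 300 bases of the *Gata2* peak (chr6:88189691-88189990, mm10, plus strand) and the 250 bases upstream of the *Gata2* start in RefSeq (chr6:88193641-88193890, GRCm38.p6, plus strand, CpG in capitals) are shown because the first was listed as accessible and the second, of like base composition, was not.
Gata2 peak: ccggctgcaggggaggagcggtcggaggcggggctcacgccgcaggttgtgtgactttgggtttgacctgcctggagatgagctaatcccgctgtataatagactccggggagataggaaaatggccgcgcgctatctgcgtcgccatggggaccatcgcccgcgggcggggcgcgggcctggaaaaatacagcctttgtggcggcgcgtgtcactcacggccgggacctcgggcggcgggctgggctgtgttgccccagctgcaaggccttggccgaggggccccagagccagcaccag
Gata2 upstream: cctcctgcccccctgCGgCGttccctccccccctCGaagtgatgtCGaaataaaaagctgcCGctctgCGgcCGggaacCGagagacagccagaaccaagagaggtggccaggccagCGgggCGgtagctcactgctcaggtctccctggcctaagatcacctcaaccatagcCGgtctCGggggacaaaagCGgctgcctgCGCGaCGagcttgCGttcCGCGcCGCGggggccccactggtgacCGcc
The upstream sequence holds 22 CpG dinucleotides at a GC content of 67.2%.

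*Tal1* and *Tal2* encode closely related basic helix-loop-helix (bHLH) factors that bind E-boxes together with other bHLH proteins and form complexes with GATA factors. *Tal1* (chr4:115056426-115071755, plus strand) had no peak in a stretch of 133.2 kb. Its nearest peaks, 56.2 kb upstream and 61.7 kb downstream of the gene body, lay at the promoters of *Stil* and *Cyp4x1*, named after their values were seen, whose TSSs were 0.188 kb and 0.272 kb from a peak. The upstream one was the only peak between 50 and 60 kb from any of the 8 genes, just outside the window. The farthest inside it was a *Tal2* peak, 37.0 kb away. *Tal2* (chr4:53779705-53788712, plus strand) had 2 peaks. One was centred 8.14 kb upstream of the *Tal2* TSS, with a GC content of 49.2% and 1 CpG. The other, at chr4:53825725-53826224, was the promoter peak of *Tmem38b*, 0.071 kb from the TSS of that gene. Only the first of these had the *Tal2* TSS as its nearest protein-coding start.

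*Helt* encodes a bHLH factor with an orange domain that acts as a repressor, and *Sox14* a factor of the SRY-box family. *Helt* (chr8:46292039-46294671, minus strand) had 1 peak, at chr8:46311110-46311609, 16.7 kb upstream of its nearest TSS and in an intron of the noncoding RNA gene *Gm39168*. This peak had a GC content of 46.8%, and repeats took up 30.2% of it. Within 100 kb *Helt* had 8 peaks, more than any other of the 8 genes, so that the peaks around it lay mostly beyond the 50 kb window. *Sox14* (chr9:99874106-99876170, minus strand) stood at the other end. It had no peak in a stretch of 409.8 kb, none within 100 kb, and its TSS was 191.0 kb from the nearest one. Among protein-coding genes with a CpG ratio of at least 0.6 at the TSS, 0.604% had a TSS farther from a peak. The 250 bases upstream of the *Sox14* start in RefSeq (chr9:99876171-99876420, GRCm38.p6, minus strand, CpG in capitals) are shown as the promoter farthest from a listed peak, with 23 CpG dinucleotides and a GC content of 65.6%, and the middle 300 bases of the *Helt* peak (chr8:46311210-46311509, mm10, plus strand) with a CTCF-like match (the consensus of CTCF, a factor that binds at chromatin loops and domain borders, with 1 mismatch) in capitals. A match to letters is a description of the sequence, and binding was not measured.
Helt peak: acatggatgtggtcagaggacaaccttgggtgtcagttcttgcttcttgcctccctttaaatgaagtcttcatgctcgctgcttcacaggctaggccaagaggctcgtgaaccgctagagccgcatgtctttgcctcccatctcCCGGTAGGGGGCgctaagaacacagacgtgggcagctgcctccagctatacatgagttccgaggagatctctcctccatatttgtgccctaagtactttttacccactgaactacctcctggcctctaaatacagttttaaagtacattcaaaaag
Sox14 upstream: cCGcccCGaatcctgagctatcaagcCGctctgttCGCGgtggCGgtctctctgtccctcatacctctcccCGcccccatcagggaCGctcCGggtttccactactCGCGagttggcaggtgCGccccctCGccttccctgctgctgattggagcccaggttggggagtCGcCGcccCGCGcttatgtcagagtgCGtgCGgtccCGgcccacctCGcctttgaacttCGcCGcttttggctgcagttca
The CpG ratio of this upstream sequence was 0.881, and no peak was listed at it.

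*Nkx2-2* and *Nkx6-1* encode homeodomain factors. *Nkx2-2* (chr2:147177546-147194243, minus strand) had the single peak inside one of the 8 gene bodies, at chr2:147177593-147178092, 8.26 kb from its nearest basic TSS. It overlapped the last exon of Nkx2-2-203, which was the single one of the 4 GENCODE transcripts of the gene to reach it. The other protein-coding transcript, Nkx2-2-201, ended 4.99 kb before the peak. No other peak lay within 100 kb of the gene body, and 8 in all lay within 500 kb, the lowest count of the 8 genes. *Nkx6-1* (chr5:101658139-101664996, minus strand) had 2 peaks, both upstream and intergenic. The first, at chr5:101669417-101669916, was centred 4.67 kb from the TSS, with 20 CpG dinucleotides, a GC content of 45.4% and a CpG ratio of 0.783. The second, at chr5:101685289-101685788, was 20.5 kb from the TSS, with 4 CpG dinucleotides and a GC content of 43.2%. Downstream of *Nkx6-1* the list held no peak for 636.9 kb, the longest gap beside any of the 8 genes. The middle 300 bases of both peaks are shown (chr5:101669517-101669816 and chr5:101685389-101685688, mm10, plus strand), the first with a CTCF-like match in capitals and the second with the reverse complement of the forkhead motif TGTTTAC, as forkhead factors such as *Foxa1* and *Foxa2* are part of the DN programme.
Nkx6-1 near peak: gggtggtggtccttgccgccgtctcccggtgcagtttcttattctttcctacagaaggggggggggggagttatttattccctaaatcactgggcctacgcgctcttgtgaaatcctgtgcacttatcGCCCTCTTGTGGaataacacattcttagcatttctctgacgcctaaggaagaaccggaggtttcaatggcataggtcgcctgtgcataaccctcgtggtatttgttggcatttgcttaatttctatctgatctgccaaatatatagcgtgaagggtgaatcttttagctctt
Nkx6-1 far peak: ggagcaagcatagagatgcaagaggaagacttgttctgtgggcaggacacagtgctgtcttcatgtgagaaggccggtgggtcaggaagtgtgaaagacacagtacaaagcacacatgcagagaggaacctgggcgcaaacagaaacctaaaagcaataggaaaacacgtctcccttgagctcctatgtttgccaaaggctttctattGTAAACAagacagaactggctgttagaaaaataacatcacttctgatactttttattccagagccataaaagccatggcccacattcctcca
The far peak was the single one of the 7 with this forkhead motif, which 7.22% of all peaks held.

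The 7 peaks were mostly upstream and away from protein-coding promoters. By the peak centre 5 were upstream, 1 downstream and 1 inside a gene, and 1 was at a protein-coding promoter, that of *Tmem38b*. The *Gata2* peak also met the 1 kb rule at a noncoding gene, with its centre 0.841 kb from the TSS of *Gm38708*. For 6 of the 7 (85.7%, 95% exact binomial interval 42.1% to 99.6%, for counting error only) the nearest protein-coding TSS was that of the GABAergic gene, and for 2 of the 7 it was so when noncoding genes were counted too. Their median GC content was 46.8%, against 52% over all peaks and 49.4% over peaks at no protein-coding promoter. The GC content ranged from 43.2% in the far *Nkx6-1* peak to 68.4% in the *Gata2* peak, and the CpG ratio from 0.0331 in the upstream *Tal2* peak to 0.835 in the *Tmem38b* promoter. The 7 peaks thus differed widely in base composition. The near *Nkx6-1* peak joined a low GC content with a high CpG ratio.

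**Figure D2:**
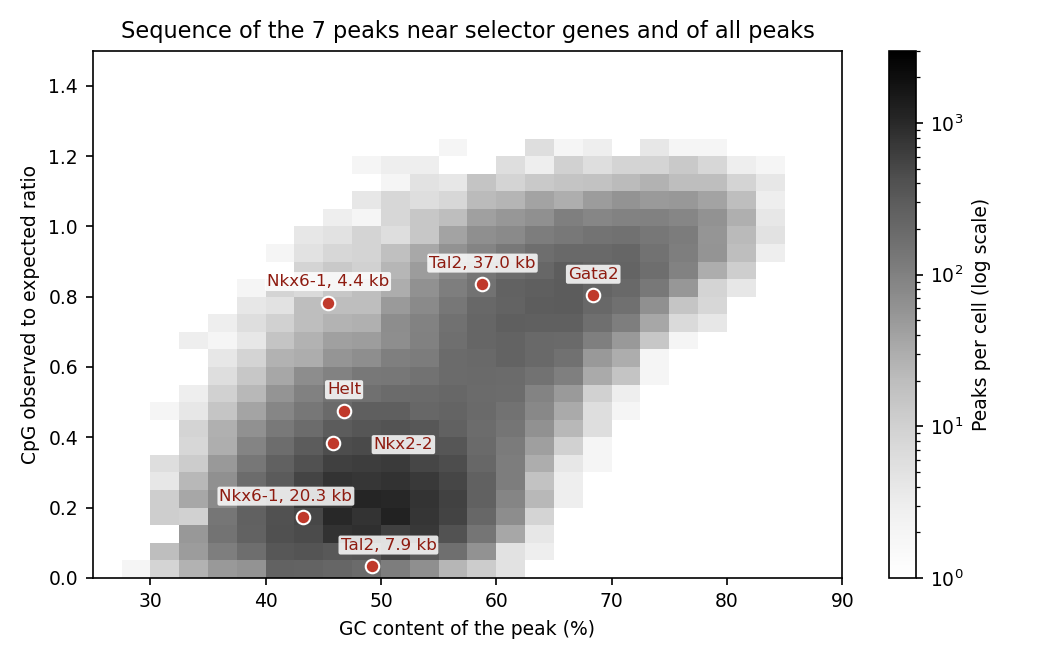
GC content in percent (x axis) and CpG observed to expected ratio (y axis) of the 7 peaks (red points, named by gene and, where a gene has 2, by the distance of the peak edge from the gene body) over all 55326 peaks (grey cells, log scale). The Gata2 peak and the Tal2 peak at 37.0 kb, which is the Tmem38b promoter, sit in the upper cloud, and the near Nkx6-1 peak lies apart at a GC content of 45.4% and a ratio of 0.783.

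Short motifs of the factor families were counted on both strands of the 7 peaks, each of 500 bp. The GATA motif AGATAA was in 4 of the 7 (57.1%, exact interval 18.4% to 90.1%), both *Tal2* peaks, the *Nkx2-2* peak and the far *Nkx6-1* peak, and in 16.9% of all peaks and 20.5% of those at no protein-coding promoter. None of the 4 matches lay in the central 200 bp of its peak, where 5.82% of all peaks held one. E-boxes (CANNTG) were in all 7 and in 90.0% of all peaks. The NK2 motif CACTTNA was in 1 peak (the upstream *Tal2* peak, 19.6% of all peaks), the SOX motif CATTGT in 1 (the *Nkx2-2* peak, 17.2%), and the homeodomain motif TAATTA in none (exact interval up to 41.0%, 7.27% of all peaks). The 12-letter CTCF consensus was in none, against 5.25% of all peaks. With 1 mismatch allowed, a search added after the sequences were seen, it was in 4 (the *Gata2*, upstream *Tal2*, *Helt* and near *Nkx6-1* peaks), against 17.9% of all peaks. With 7 peaks each share spans a wide interval, and no share was tested.

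Most of the 8 genes had CpG-rich start sites, a class of promoter that usually carried a peak in DNs. Over the 1001 bp around the TSS, 7 of the 8 had a CpG ratio of at least 0.6, from 0.603 at *Sox14* to 0.849 at *Nkx6-1*, and *Tal2* had 0.441. Of the 11099 protein-coding genes with a ratio of at least 0.6, 88.4% had a promoter peak, 2.26% had no peak within 50 kb and 15.4% had at most 2. None of these 7 genes had a promoter peak, and 3 of them, *Gata3*, *Tal1* and *Sox14*, had no peak within 50 kb. In the class from 0.6 to 0.8, which held 5 of the 8, 84.6% of genes had a promoter peak, and in the class from 0.8 to 1, which held *Nkx6-1* and *Tal1*, 92.4%. For *Tal2*, the class from 0.4 to 0.6 had 61.2%.

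**Figure D3:**
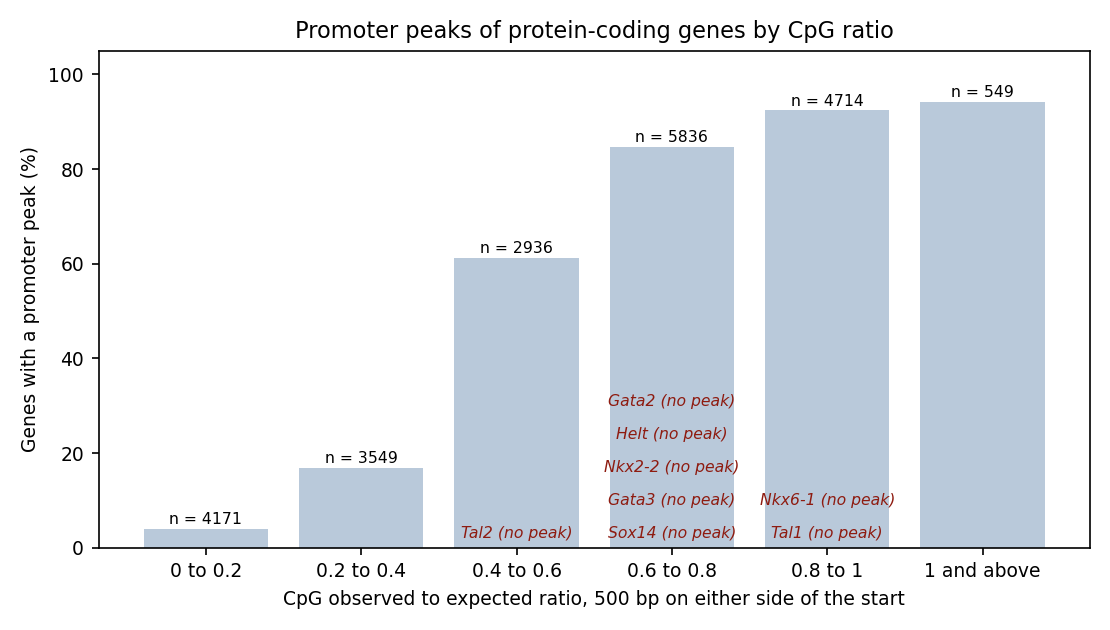
Share of protein-coding genes with a promoter peak (y axis, percent) by class of the CpG observed to expected ratio around the TSS (x axis), with the number of genes over each bar. The names of the 8 GABAergic genes stand in their class, and none of them had a promoter peak, in classes where 61.2% to 92.4% of genes had one.

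Most of the 8 genes had few protein-coding neighbours, at whose promoters a window can also hold peaks. *Helt*, *Sox14*, *Nkx2-2* and *Nkx6-1* had no other protein-coding gene in the window, *Gata2*, *Tal1* and *Tal2* had 1 and *Gata3* had 3. Among protein-coding genes with 0 to 3 neighbours, 57.2% had a promoter peak and 37.5% had at most 2 peaks, and with a CpG ratio of at least 0.6 as well the shares were 88.1% and 19%. Low counts were more common among genes that stand alone. With no neighbour, 52.1% of protein-coding genes had at most 2 peaks, as *Nkx6-1* had, 39.3% had at most 1, as *Helt* and *Nkx2-2* had, and 24.0% had none, as *Sox14*. With 1 neighbour, 38.9% had at most 2 (*Tal2*), 26.2% at most 1 (*Gata2*) and 16.6% none (*Tal1*). The windows held no unknown bases, and repeats made up 20.8% to 35.1% of them.

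Within 100 kb the 8 genes had fewer peaks than protein-coding genes by both mean and median. Counted in rings of 50 kb on both sides of the gene body, the mean was 0.75 peaks per gene in the first ring, against 4.99 for protein-coding genes and 6.12 for those with a CpG ratio of at least 0.6. From 50 to 100 kb it was 1.88 against 4.24, and from 450 to 500 kb 2.75 against 3.69. By the median, the 8 genes had 0.5 against 3 in the first ring and 1 against 3 in the next, while from 100 kb on their medians, between 1.5 and 3, lay around the 2 of protein-coding genes in each ring. The difference was thus largest next to the genes, and beyond 100 kb it appeared in the means and not in the medians. Within 500 kb *Gata2*, *Helt* and *Nkx6-1* had 37, 34 and 33 peaks, above the median of 31 for protein-coding genes, and the other 5 had between 8 and 24.

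**Figure D4:**
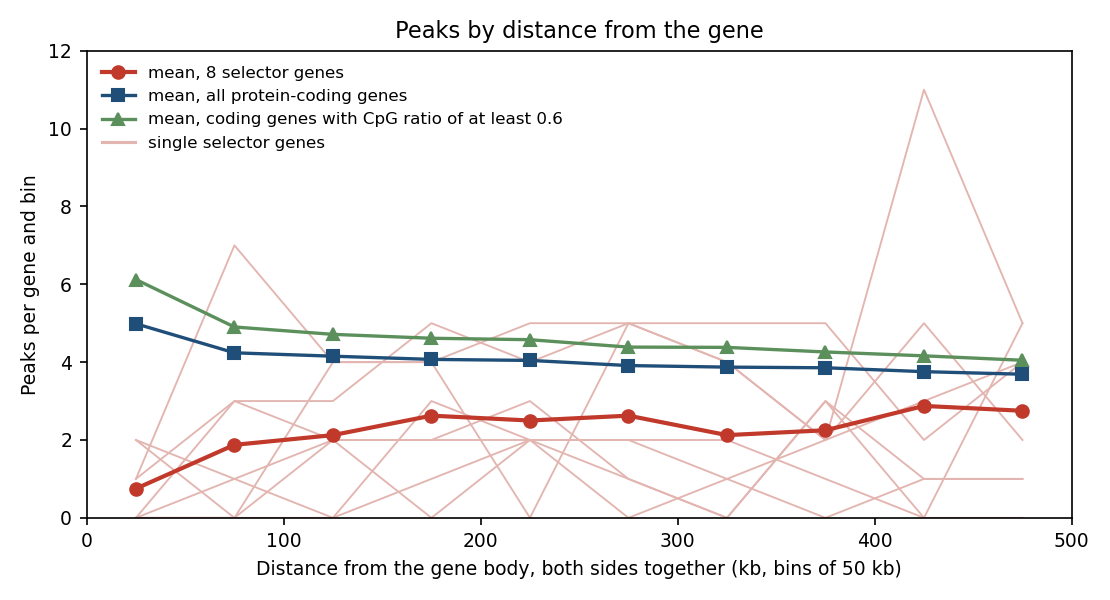
Peaks per gene (y axis) in 10 rings of 50 kb by distance from the gene body in kb (x axis), both sides together. The red line is the mean of the 8 GABAergic genes, pale lines single genes, and the blue and green lines the means of all protein-coding genes and of those with a CpG ratio of at least 0.6; the red line starts at 0.75 where the blue line starts at 4.99.

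Transcription factors of DNs had many peaks in the same list. All 9 (*Lmx1a*, *Lmx1b*, *Foxa1*, *Foxa2*, *En1*, *En2*, *Pitx3*, *Nr4a2* and *Otx2*) had a promoter peak, against 56.9% of protein-coding genes. They had a median of 10 peaks within 50 kb and a range from 2 at *Otx2* to 46 at *Lmx1b*. *Lmx1b*, *Foxa1* and *Foxa2* were among the markers by which the authors checked the DN cluster, so their peaks are not independent of its labelling, while the other 6 are not named in the study's methods for it. Of the 9, 8 had a CpG ratio of at least 0.6, as did 7 of the 8 GABAergic genes. Among all protein-coding genes with such a ratio, 88.4% had a promoter peak. The 2 sets overlapped in count only at 2 peaks, where *Otx2* stood with *Tal2* and *Nkx6-1*. LIM homeobox genes listed for other neurons were closer to the GABAergic genes. Of these, *Lhx1* and *Lhx5* are also counted below among further factors of the GABAergic programme, so the lists are not separate. None of the 10 had a promoter peak, against 56.9% of protein-coding genes, and 8 of the 10 had a CpG ratio of at least 0.6. Their median was 1.5 peaks within 50 kb, from 0 at *Lhx2* and *Isl1* to 6 at *Lhx3*. These differences were not tested, since 1 pooled list gives no replicates.

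**Figure D5:**
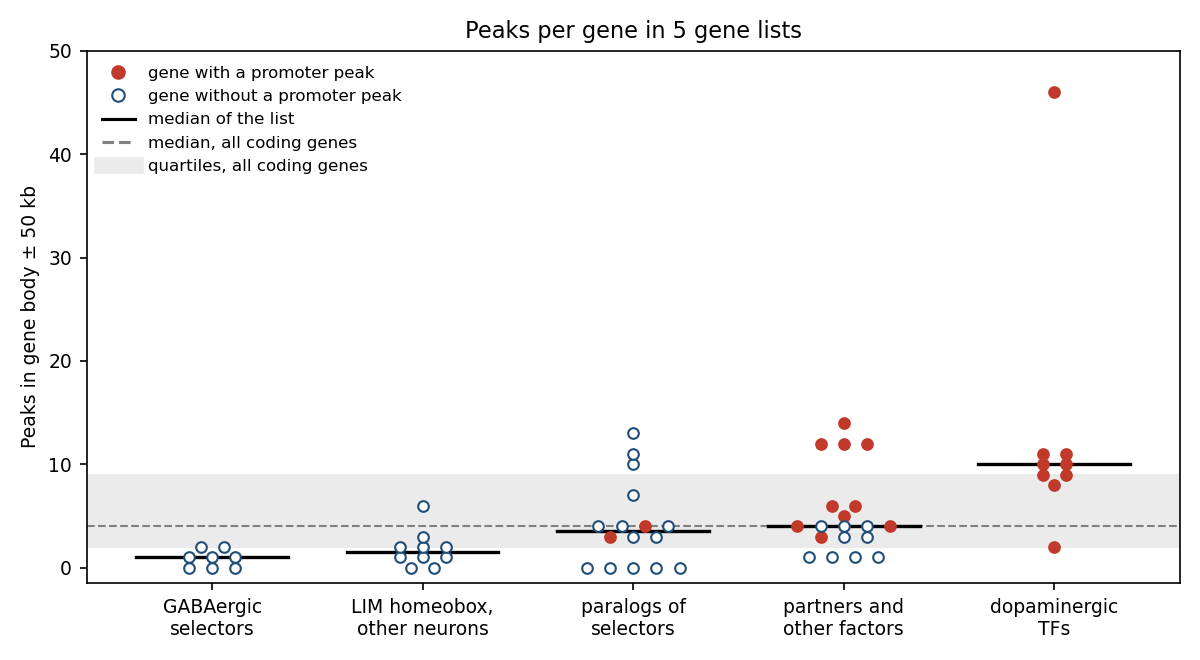
Peaks in the gene body and 50 kb on either side (y axis) for each gene of 5 lists, filled where the gene had a promoter peak. Black lines are list medians, the dashed line and grey band the median (4) and quartiles (2 and 9) of protein-coding genes; the GABAergic selectors lie between 0 and 2, and dopaminergic transcription factors (TFs) between 2 and 46.

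Few paralogs of the 8 genes had a promoter peak. Of 16 (12.5% against the 56.9% of protein-coding genes), *Hey1* and *Hey2*, bHLH repressors related to *Helt*, had one, and the median was 3.5 peaks within 50 kb. The highest count was 13, at *Lyl1*, which lies among 4 other protein-coding genes and had no promoter peak. No peak lay within 50 kb of 5 of the 16, among them *Sox21* and *Nkx2-1*. Of 19 partners and further factors of the GABAergic programme, 10 had a promoter peak, a share of 52.6% that is near the 56.9% of protein-coding genes, although 17 of the 19 had a CpG ratio of at least 0.6, a class in which 88.4% had one. They included the cofactors of GATA and TAL proteins *Ldb1*, *Lmo2*, *Lmo4* and *Zfpm1*, and the E proteins *Tcf3* and *Tcf12*, which pair with TAL factors. The factors without one included *Lhx1*, *Lhx5*, *Pax2*, *Pax5* and *Six3*. The list as a whole had a median of 4 peaks, equal to that of protein-coding genes.

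Genes of GABA synthesis and transport were divided. The vesicular transporter gene *Slc32a1* and the GABA-degrading enzyme gene *Abat* had a promoter peak, with 8 and 10 peaks within 50 kb. The genes for the GABA-synthesizing enzymes, *Gad1* and *Gad2*, did not. Their TSSs were 29.7 kb and 99.8 kb from the nearest peak, and they had 3 and 2 peaks within 50 kb. Markers of DNs had a promoter peak in 9 of 9, against 56.9% of protein-coding genes, but 5 of them are the genes named for identifying or checking the cluster, and 5 also stand among the dopaminergic transcription factors above. As for other cell types, 1 of 3 markers of GABAergic neurons (*Slc32a1*), 1 of 2 of glutamatergic neurons (*Slc17a6*) and 1 of 3 of oligodendrocytes had one, and none of 3 of astrocytes and none of 3 of microglia. The markers of oligodendrocytes, astrocytes and microglia had median CpG ratios of 0.325, 0.341 and 0.211, and in the class from 0.2 to 0.4, 16.9% of protein-coding genes had a promoter peak. Single markers also fell in other classes, from below 0.2, where 3.93% of genes had one, to 0.6 to 0.8, where 84.6% had one. The oligodendrocyte marker with a promoter peak was in the latter class, so 16.9% is not the background of each list. The DN markers *Th* (0.266) and *Ddc* (0.254), for the enzymes of dopamine synthesis, fell in the class from 0.2 to 0.4 with a promoter peak each, and 4 of the 9 DN markers had a ratio of at least 0.6. Within 50 kb the median was 11 peaks for DN markers, 3 for markers of GABAergic neurons, 5 of glutamatergic neurons, 13 of oligodendrocytes, 9 of astrocytes and 11 of microglia. In the gene bodies alone it was 7 for DN markers and between 0 and 2 for the other lists. The median number of other protein-coding genes in the window was 1 for markers of DNs and of GABAergic neurons, 5.5 for glutamatergic neurons, 3 for oligodendrocytes, 2 for astrocytes and 7 for microglia. Any part that nuclei of other cell types in the DN cluster had in these peaks was not tested.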

How the data were processed

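snATAC-seq was measured in 2 DN samples of the VTA. The authors aligned reads to mm10 with Cell Ranger, removed doublets with a DAPI gate and in ArchR, clustered nuclei, built pseudobulk replicates and merged overlapping reproducible peaks; Bowtie is also named in the submitters' processing notes. They deposited 1 list for both samples with the chromosome, start and end of 55326 peaks, all 500 bp wide, without score or count. The list itself therefore gives no depth per sample or per peak. The study's methods report the DN nuclei per sample and the total of DN fragments, but these were not used here. Whether a filter on the share of nuclei had been applied to the list is not stated. Starts were read as counted from 0 and are printed counted from 1.

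Peaks were assigned by an overlap of at least 1 bp to gene bodies and TSSs of GENCODE M21. Sequence came from GRCm38 (the sequence of mm10) through pysam 0.24.0, and promoters from RefSeq. RefSeq upstream sequences were found for all 8 genes. The CpG ratio was taken over 500 bp on either side of the TSS. Counting was checked on simulated peaks. The 8 genes, the lists and the motifs were chosen with earlier results of these data known, and all 8 genes were named. Results for a few genes and for 1 sequence are not reported here.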

Additional observations from a re-analysis of the deposited data

How the results depend on the processing

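The 8 genes kept 0 promoter peaks with TSSs of all transcripts, with 250 bp or 2 kb on either side, and with the outer TSS only. The 7 peaks within 50 kb, and the 1 in a gene body, did not change in number when the peak centre decided, and the 7 also when 50% of the peak had to lie inside and when starts were read as counted from 1. Windows of 10 kb held 4 peaks and windows of 100 kb 23. With 10 kb, *Tal2* and *Nkx6-1* had 1 each and *Helt* 0. With 100 kb, *Gata2* had 4, *Gata3* 1, *Tal1* 3 and *Helt* 8, so the absence of peaks at *Gata3* and *Tal1* depends on the window, while *Sox14* stayed at 0. The median of the LIM homeobox genes was 0.5 and 3.5 in these windows, and 1 of them (*Lhx3*) had a promoter peak with 2 kb. The share of peaks nearest to the GABAergic gene was 28.6% with noncoding genes counted. In the central 200 bp the shares with the GATA and NK2 motifs were each 0%. The CTCF consensus with 1 mismatch, added after the data were seen, gave 57.1% against 0%. The share of protein-coding genes with as many peaks or fewer, 16.8% to 33.3% for the 8 genes, was 27.8% to 55.3% when peaks at protein-coding promoters were left out, so the low counts are less unusual among distal peaks, and 2.26% to 15.4% among genes with a CpG ratio of at least 0.6.

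A stricter peak threshold and leaving out a sample could not be run, because the list used gives no score and pools both samples, and other files of the study were not used here. No paired analysis was possible because the result comes from no test. The list used has no depth, so an accessible site in few nuclei cannot be told from a closed one, and the order of genes by peak count carries no error.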
